A study of Mus musculus with 4 samples.

Results

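Plau, Plat, Plaur, Serpine2 and F3 encode the plasminogen activators, the receptor that holds one of them at the cell surface, an inhibitor of both, and tissue factor. They were chosen by symbol, and all 5 were found among the 32285 genes listed in each gene expression matrix. The study grew organoids from mouse mammary gland (fat pads without lymph nodes, virgin mice of 8 to 9 weeks) in 4 matrices and profiled them by droplet-based single-cell RNA sequencing. The 4 conditions were a collagen culture (COL1), a stiff culture (STIFF), a Matrigel culture (MATR) and a soft culture (SOFT); no gene was altered in any of them and no drug is named. COL1 and STIFF cells carried different hashtag antibodies and ran on 1 channel; MATR and SOFT cells ran on another in the same way. With 1 culture per condition, no difference between conditions could be tested, the spread between cultures was not measured, and every interval given here covers counting error only.

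Urokinase (Plau) and tissue-type plasminogen activator (Plat) cut plasminogen into plasmin, a protease that dissolves fibrin and opens other matrix proteins. The urokinase receptor (Plaur) keeps urokinase at the cell surface, and Serpine2, also called protease nexin-1, is a secreted serpin that inhibits thrombin and both activators. Tissue factor (F3) is the membrane receptor for coagulation factor VII and starts the clotting cascade, which ends in thrombin and fibrin. In the mammary gland the plasminogen system is known for its part in tissue remodelling during involution.

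For 3 of the 5 members RefSeq (GRCm38.p6) gives the 250 bases before the transcription start, and these are shown because they set F3 and Plaur, which carry the AP-1 motif TGANTCA, beside Serpine2, which does not. The F3 window is chr3:121723287-121723536 on the plus strand and the Plaur window is chr7:24462233-24462482 on the plus strand. The Plaur window lies inside the annotated span of the gene, which starts at 24460937. The Serpine2 window is chr1:79858666-79858915 on the minus strand. Each is written 5′ to 3′, and capitals mark matches to TGANTCA.
F3: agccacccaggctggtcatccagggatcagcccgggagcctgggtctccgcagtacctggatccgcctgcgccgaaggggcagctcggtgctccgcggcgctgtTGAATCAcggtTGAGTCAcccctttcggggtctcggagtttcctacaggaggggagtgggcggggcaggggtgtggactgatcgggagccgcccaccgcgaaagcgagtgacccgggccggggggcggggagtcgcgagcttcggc
Plaur: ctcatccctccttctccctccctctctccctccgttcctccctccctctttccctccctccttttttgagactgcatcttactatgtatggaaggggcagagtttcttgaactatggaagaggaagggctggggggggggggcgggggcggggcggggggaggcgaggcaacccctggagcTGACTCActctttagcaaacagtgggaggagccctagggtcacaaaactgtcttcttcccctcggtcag
Serpine2: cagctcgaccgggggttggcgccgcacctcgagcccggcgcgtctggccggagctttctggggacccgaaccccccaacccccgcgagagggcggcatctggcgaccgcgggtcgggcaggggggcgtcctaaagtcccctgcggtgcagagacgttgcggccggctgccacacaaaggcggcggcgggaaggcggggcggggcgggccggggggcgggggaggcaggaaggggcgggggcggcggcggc

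The F3 window held 2 matches to TGANTCA, with first bases 146 and 135 bases before the start, and the Plaur window held 1, 69 bases before it. A match on either strand was found in 6.75% of 32851 promoter windows of the same length. The GC box GGGCGG, searched on both strands, matched 3 times in F3, 3 times in Plaur and 6 times in Serpine2, and 32.7% of all windows held it. The motifs TATAAA and GGAATG were not among the letters of any of the 3 windows.

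The cell filter kept 9568 of 10615 barcodes of the COL1 and STIFF pool, with a median of 10087.5 unique molecule counts (UMIs) per cell, and 7945 of 8767 barcodes of the MATR and SOFT pool, with a median of 12626. The pools shared 19 kept barcodes. By hashtag, 1563 cells were called COL1, 2451 STIFF, 2333 MATR and 1941 SOFT, and the pairing of tag and culture was read only from the names of the deposited matrices, so that every value by condition rests on those names. Barcodes without a called tag made up 54.9% of the first pool and 42.7% of the second. This share was 4.22% and 0.438% of immune-like barcodes, against 75.4% and 68.9% of hormone receptor-negative (HR-negative) luminal-like ones, so levels by class are given first over all barcodes of a pool. Clusters were named from marker lists. They gave HR-positive luminal-like, HR-negative luminal-like, basal-like, fibroblast-like and immune-like cells, the immune-like ones led by macrophage genes such as C1qa. The fibroblast-like cluster also carried 4 pericyte markers, and these types were not separated. Cells of unnamed clusters, among them 1 with markers of both luminal classes and a median of 26550 UMIs, enter only the values over all cells.

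Each member had a class in which its level stood highest, and this was the same class in both pools. Levels are UMIs of the gene per 1000000 UMIs of the summed cells of a class (CPM). F3 was highest in HR-positive luminal-like cells, the oestrogen- and progesterone-sensing layer, Serpine2 and Plat in fibroblast-like cells, and Plau and Plaur in immune-like cells. These orders cover the 5 classes of at least 50 barcodes. An endothelial-like cluster (25 and 12 barcodes by pool) was left out of them. In the COL1 and STIFF pool it had 29.7 CPM of Plau (13.6 to 56.4), 59.4 CPM of Plaur (35.2 to 93.9) and 36.3 CPM of Plat (18.1 to 65.0).

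F3 reached 277 CPM (271 to 283) in HR-positive luminal-like cells of the COL1 and STIFF pool and 450 CPM (444 to 456) in those of the MATR and SOFT pool. HR-negative luminal-like cells had 98.4 and 110 CPM in these pools, fibroblast-like cells 60.7 and 86.8, immune-like cells 67.7 and 73.2, and basal-like cells 39.4 and 64.6. In the COL1 and STIFF pool the intervals of fibroblast-like (56.4 to 65.3) and immune-like cells (62.9 to 72.8) overlapped. In the pool of MATR and SOFT those of basal-like (59.5 to 70.2) and immune-like cells (67.7 to 79.0) did. When each cell was thinned to 5000 UMIs, 43.5% and 48.6% of HR-positive luminal-like cells kept an F3 UMI, against 9.26% and 12.4% of basal-like cells, the class with the lowest level. Median depths were 10901 and 11823 UMIs in the HR-positive cells and 8815.5 and 8603 in the basal-like cells.

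Serpine2 stood at 379 CPM (368 to 390) in fibroblast-like cells of the COL1 and STIFF pool and 415 CPM (400 to 431) in those of the MATR and SOFT pool. Basal-like cells, the contractile outer layer, followed with 158 and 114 CPM, and HR-positive luminal-like cells with 114 and 58.8. Immune-like cells had 52.8 and 23.1 CPM and HR-negative luminal-like cells 37.2 and 21.0. The intervals of these lowest classes overlapped in the second pool, that of MATR and SOFT (20.1 to 26.5 and 19.5 to 22.5). After thinning, 52.5% and 51.2% of fibroblast-like cells and 48.8% and 37.9% of basal-like cells kept a Serpine2 UMI, against 12.1% and 8.38% of HR-negative luminal-like cells. The first place of fibroblast-like cells depended on the clustering: at a Leiden resolution of 1.0 the fibroblast-like level was 128 CPM in the COL1 and STIFF pool, below basal-like cells (154 CPM), and 119 CPM in the MATR and SOFT pool. At that resolution a cluster of 186 tagged cells, with Rgs5, a pericyte gene, among its leading genes, split off and stayed unnamed. It held most of the Serpine2 of the class, and its levels by condition are given with those of fibroblast-like cells.

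Plat had the narrowest source. It was measured at 145 CPM (138 to 152) and 141 CPM (133 to 151) in fibroblast-like cells of the COL1 and STIFF pool and the MATR and SOFT pool. Among classes of at least 50 cells basal-like cells came next, with 14.5 and 11.3 CPM, and no other exceeded 6.78 CPM. The share of thinned cells with a Plat UMI was 49.4% and 48.2% in fibroblast-like cells, against 1.87% and 0.708% in immune-like cells.

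Plau and Plaur, an enzyme and its receptor, were both highest in immune-like cells and next in fibroblast-like cells among the 5 classes. Plaur was at 58.8 CPM (54.3 to 63.5) and 68.8 CPM (63.5 to 74.5) in immune-like cells of the 2 pools, and at 28.9 and 25.4 CPM in fibroblast-like cells. Plau was at 23.5 CPM (20.7 to 26.5) and 27.1 CPM (23.8 to 30.7) in immune-like cells and at 18.3 (16.0 to 20.9) and 18.5 CPM (15.4 to 22.0) in fibroblast-like cells, so for Plau the intervals of these classes touched in the COL1 and STIFF pool. Epithelial classes had at most 9.16 CPM of Plaur and 6.24 CPM of Plau. After thinning, 23.4% and 26.6% of immune-like cells kept a Plaur UMI and 11.2% and 12.4% a Plau UMI, against 0.866% and 0.842% of basal-like cells for Plaur and 1.21% and 0.645% of HR-negative luminal-like cells for Plau.

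**Figure D1:**
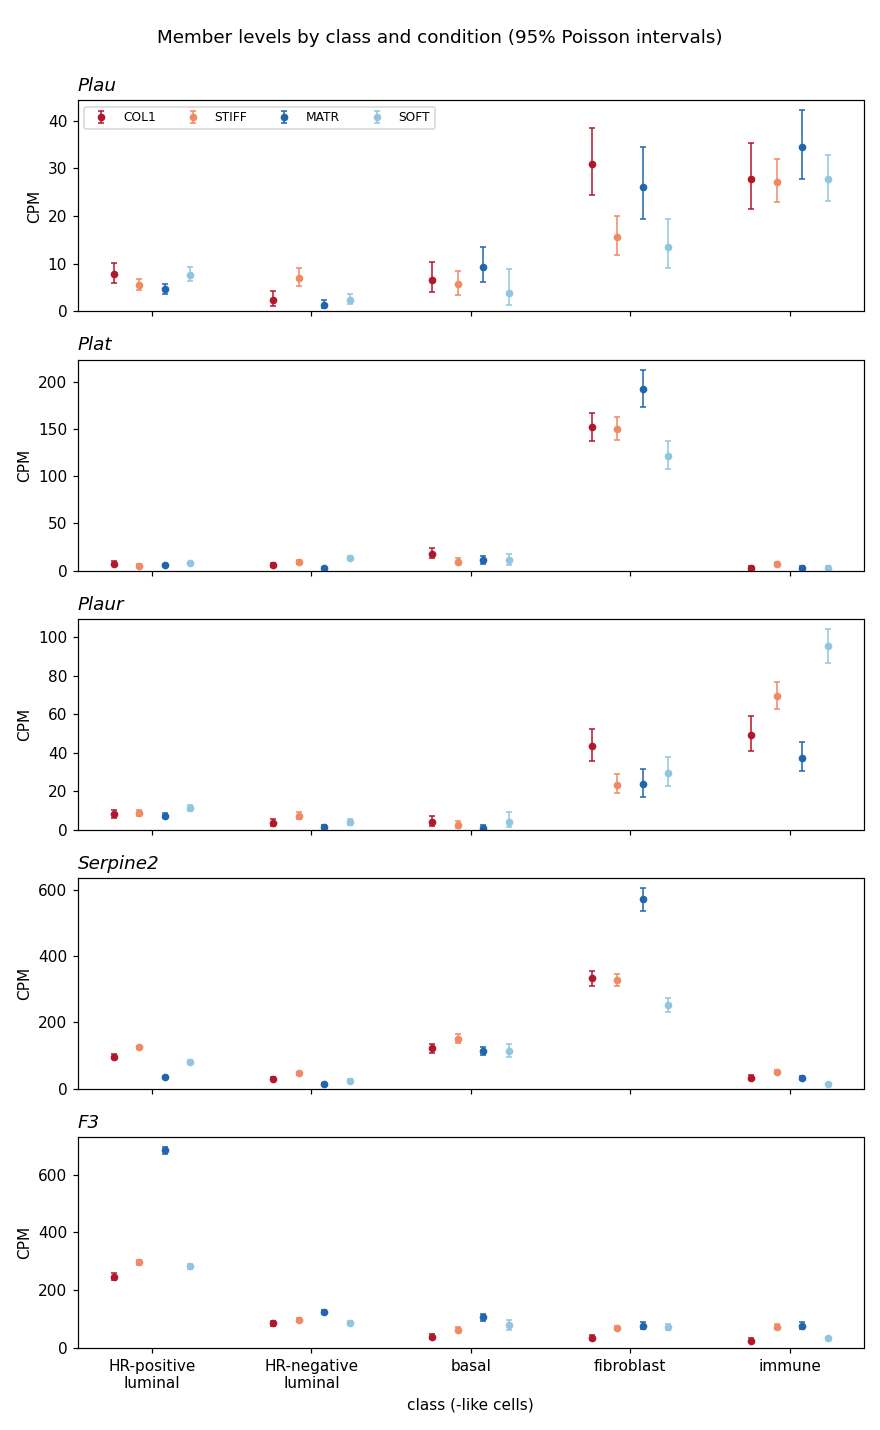
Level of each member in CPM of summed UMIs (vertical axis, one scale per gene) in 5 classes of cells (horizontal axis), for COL1, STIFF, MATR and SOFT. Points are the level of 1 culture and bars are 95% Poisson intervals of the count; F3 in HR-positive luminal-like cells reached 684 CPM in MATR, and Serpine2 in fibroblast-like cells 571 CPM in MATR.

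A class with a high level did not always hold most of a gene's molecules, since class sizes differed. Of all F3 UMIs in tagged cells, HR-positive luminal-like cells held 59.0% in COL1, 48.8% in STIFF, 70.3% for MATR and 66.6% for SOFT. For Plat, fibroblast-like cells, which made up 10.5%, 6.12%, 4.46% and 4.17% of the cells of COL1, STIFF, MATR and SOFT, held 71.6%, 66.5%, 66.5% and 47.5% of the UMIs. The remainder of Plat in SOFT lay mainly in luminal-like cells, with 22.2% in HR-negative and 21.5% in HR-positive ones. Serpine2 had a mixed origin: fibroblast-like cells held 36.0%, 22.0%, 43.3% and 22.3% of it in COL1, STIFF, MATR and SOFT, and HR-positive luminal-like cells 27.2%, 34.0%, 24.3% and 49.7%. Immune-like cells held 35.6% of Plaur UMIs in COL1, 49.5% in STIFF, 30.4% for MATR and 60.1% for SOFT. In MATR HR-positive luminal-like cells held more of it (38.6%), and in COL1 fibroblast-like cells held 32.9%. Of Plau UMIs immune-like cells held 27.4%, 36.4%, 32.6% and 41.7% in COL1, STIFF, MATR and SOFT. Fibroblast-like cells held 32.3%, 14.3%, 17.7% and 9.09% of Plau, and HR-positive luminal-like cells 21.4%, 20.6%, 29.4% and 35.7%.

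**Figure D2:**
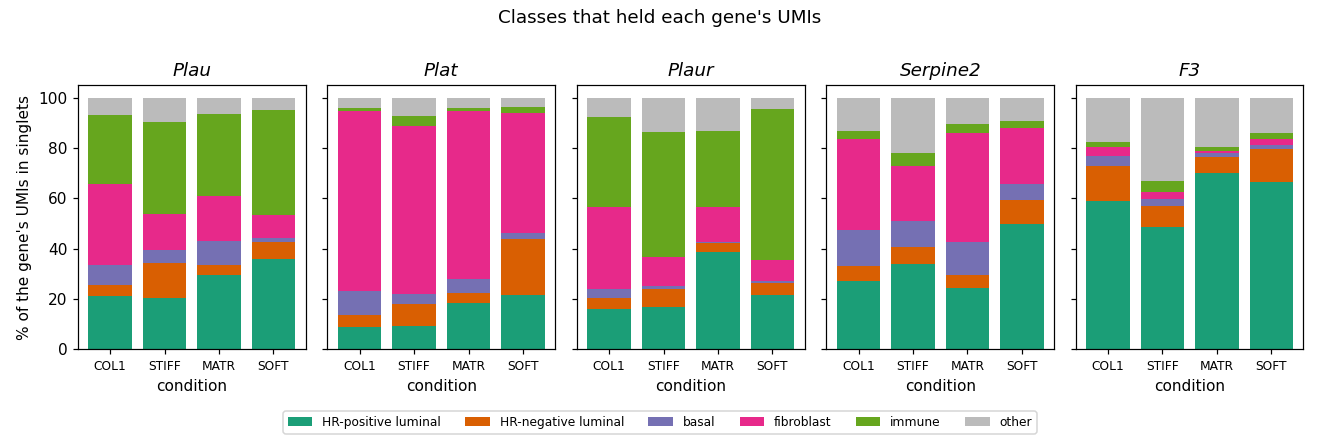
Percent of each gene's UMIs in tagged cells (vertical axis) that came from each class, in COL1, STIFF, MATR and SOFT (horizontal axis). The grey segment is cells of unnamed or small clusters; for F3 in STIFF it was 33.2%.

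Over all tagged cells of a condition, F3 was highest in MATR and Plaur was lowest there. F3 was at 120 CPM in COL1, 177 CPM in STIFF, 393 CPM in MATR and 169 CPM in SOFT. Plaur was at 14.5 CPM in COL1, 14.7 CPM in STIFF, 7.51 CPM in MATR and 20.4 CPM in SOFT. A pair of conditions is described as differing for a gene where the levels were at least 1.5-fold apart and the 95% interval of the ratio excluded 1. In COL1 over MATR all 5 members differed, where 8.83% of the 10393 genes of at least 5 CPM did. Plau (1.64-fold, 1.38 to 1.96), Plaur (1.93-fold, 1.65 to 2.25), Plat (1.85-fold, 1.64 to 2.09) and Serpine2 (1.77-fold, 1.68 to 1.88) were higher in COL1, and F3 was lower (0.306-fold, 0.294 to 0.318). COL1 and MATR ran on different channels, as did STIFF and SOFT, and for these pairs an effect of the channel and one of the matrix cannot be told apart. At a 2-fold threshold 1 member, F3, differed, and with the pools compared whole, tags ignored, 2 did.

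In MATR over SOFT, conditions that shared a channel, 2 of the 5 members differed, against 6.72% of all genes. F3 was 2.33-fold higher in MATR (2.27 to 2.40), and Plaur was lower, at 7.51 CPM in MATR against 20.4 CPM in SOFT (0.368-fold, 0.322 to 0.420). In STIFF over SOFT 1 member differed, against 6.44% of all genes: Serpine2 was at 107 CPM in STIFF against 64.7 CPM in SOFT (1.65-fold, 1.58 to 1.73). F3 was close in this pair, at 1.05-fold (1.02 to 1.08). In COL1 over STIFF, which shared a channel, 0 of the 5 differed, against 4.66% of all genes. The ratio there was 0.681 (0.653 to 0.710) for F3, 1.43 (1.29 to 1.60) for Plat and 1.35 (1.15 to 1.58) for Plau.

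Class sizes moved with these values. The fibroblast-like share was 10.5% in COL1 and 4.46% in MATR (exact binomial intervals 9.02 to 12.1 and 3.66 to 5.38), and within them Plat was at 152 CPM in COL1 against 192 CPM in MATR (0.789-fold, 0.682 to 0.912), on the other side of 1 from the ratio over all cells. Immune-like cells were 9.28% of COL1, 10.1% of STIFF, 6.60% of MATR and 13.3% of SOFT cells. The levels within each class are therefore given next.

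In HR-positive luminal-like cells F3 had 247 CPM in COL1, 296 CPM in STIFF, 684 CPM in MATR and 282 CPM in SOFT, with 528, 1080, 1243 and 1021 cells. MATR stood apart, and the other 3 cultures lay within 247 to 296 CPM. F3 was 0.361-fold in COL1 over MATR (0.343 to 0.380) and 2.42-fold in MATR over SOFT (2.34 to 2.51). By the share of cells with a UMI, MATR was again highest and STIFF next. After thinning to 5000 UMIs, an F3 UMI was kept by 39.8% of HR-positive cells in COL1, 45.0% in STIFF, 65.1% for MATR and 39.1% for SOFT (unthinned, 52.7%, 60.6%, 79.0% and 54.8%). The same share in basal-like cells was 11.4%, 14.2%, 16.2% and 17.0%. Scaled to 5000 UMIs, the median HR-positive cell had 0.342 F3 UMIs in COL1, 0.442 in STIFF, 1.42 for MATR and 0.321 for SOFT, and the 90th percentile was 3.80, 4.69, 9.79 and 4.09. The 10% of cells with most F3 held 58.2% of the thinned F3 UMIs in COL1 and 45.5% in MATR.

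In MATR, where F3 was highest in these cells, Serpine2 was lowest. Among the other cultures STIFF was highest for both genes. Serpine2 had 96.1 CPM in COL1, 125 CPM in STIFF, 34.5 CPM in MATR and 81.0 CPM in SOFT. The ratios were 2.78 in COL1 over MATR (2.49 to 3.11), 1.54 in STIFF over SOFT (1.43 to 1.66) and 0.426 in MATR over SOFT (0.386 to 0.470). Thinned shares of HR-positive cells with a Serpine2 UMI were 30.05% in COL1, 41.0% in STIFF, 13.8% for MATR and 25.8% for SOFT. Both genes were found in the same cells of each culture: among HR-positive cells with an F3 UMI after thinning, 28.9%, 40.5%, 12.6% and 23.1% also had a Serpine2 UMI in COL1, STIFF, MATR and SOFT, and among those without one 30.8%, 41.4%, 16.2% and 27.6% did.

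Of the 5 members, 3 differed in HR-positive cells in COL1 over MATR (background 7.48%), 2 in STIFF over SOFT (9.22%), 0 for COL1 over STIFF (6.71%) and 4 in MATR over SOFT (6.29%). Besides F3 and Serpine2 these were low-level differences. Plau had 7.84 CPM in COL1 against 4.68 CPM in MATR, and MATR was also below SOFT (7.71 CPM). Plaur had 7.16 CPM in MATR against 11.2 CPM in SOFT, and Plat had 5.29 CPM in STIFF against 7.98 CPM in SOFT.

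The HR-positive class was made of 3 clusters whose shares differed between cultures. Cluster 2, led by Defb14 and Klk1b27, held 37.1% of the HR-positive cells in COL1, 68.4% in STIFF, 67.2% for MATR and 20.5% for SOFT. Cluster 6, led by Calcb and Hdc, held 48.3%, 30.9%, 22.9% and 61.5%, and cluster 3, led by Muc13, the rest. F3 was higher in MATR than in SOFT in each cluster: 791 against 569 CPM in cluster 2 (1.39-fold, 1.32 to 1.47), 449 against 171 CPM in cluster 3 (2.62-fold, 2.32 to 2.96) and 483 against 220 CPM in cluster 6 (2.20-fold, 2.07 to 2.34). COL1 was below MATR in each, at 345, 106 and 210 CPM in clusters 2, 3 and 6 (0.436-, 0.235- and 0.436-fold). STIFF over SOFT, near 1 over the class, was 0.659 (0.622 to 0.698) in cluster 2 and 0.639 (0.586 to 0.696) in cluster 6, so the class value covered lower F3 in STIFF within both large clusters. Over the class F3 had 247 CPM in COL1 against 296 CPM in STIFF. In cluster 6 COL1 was higher, at 210 against 140 CPM (interval of the ratio 1.35 to 1.67). In cluster 2 F3 in COL1 over STIFF was 0.921 (0.855 to 0.991). In cluster 3, on 7 STIFF cells, the interval of this ratio (0.701 to 10.4) included 1. Serpine2 in MATR over SOFT was 0.336 (0.288 to 0.391) in cluster 2, 0.687 (0.445 to 1.04) in cluster 3 and 0.486 (0.412 to 0.570) in cluster 6. In STIFF over SOFT, 1.54-fold over the class, it was under 1.5-fold in each cluster, at 1.28 (1.12 to 1.45) in cluster 2, 1.08 (0.129 to 4.06) in cluster 3 and 1.38 (1.24 to 1.54) in cluster 6. In COL1 over MATR it was 4.05-fold (3.49 to 4.69) in cluster 2 and 2.08-fold (1.72 to 2.51) in cluster 6, and in cluster 3 it was 0.728 (0.362 to 1.39) on 14 UMIs in COL1 and 35 in MATR. Clusters were built from the same cells and genes, so these values are a description.

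**Figure D3:**
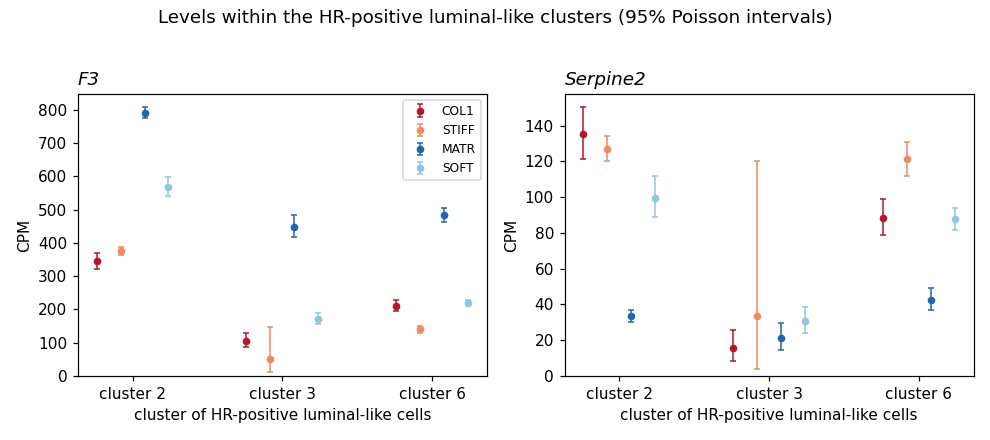
Levels of F3 and Serpine2 in CPM of summed UMIs (vertical axes) in the 3 clusters of HR-positive luminal-like cells (horizontal axes), for COL1, STIFF, MATR and SOFT, with 95% Poisson intervals. MATR has the highest F3 point in each cluster; cluster 3 in STIFF rests on 7 cells.

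In fibroblast-like cells Serpine2 had its highest value in MATR, the culture where it was lowest in HR-positive cells. It reached 333 CPM in COL1, 327 CPM in STIFF, 571 CPM in MATR and 251 CPM in SOFT, over 164, 150, 104 and 81 cells. This made 0.583-fold in COL1 over MATR (0.532 to 0.638) and 2.27-fold in MATR over SOFT (2.05 to 2.52), while COL1 over STIFF was 1.02 (0.932 to 1.11). The rule for hashtags moved this last value, with log2 ratios from -0.54 by the relative rule to 0.56 at the higher positive quantile. The cluster that split off at a Leiden resolution of 1.0 had 849 CPM of Serpine2 in COL1, 1014 CPM in STIFF, 1320 CPM in MATR and 738 CPM in SOFT, over 72, 41, 49 and 24 cells. The cells named fibroblast-like at that resolution had 99.7, 141, 172 and 102 CPM, over 92, 107, 56 and 58 cells. MATR was highest in both groups of cells, with 1.79-fold (1.59 to 2.02) and 1.68-fold (1.37 to 2.07) in MATR over SOFT and 0.643-fold (0.581 to 0.712) and 0.579-fold (0.473 to 0.708) in COL1 over MATR for the split-off and the named cells. The split-off share of these cells differed between cultures, and clusters were built from the same genes, so these values are a description. The thinned share of cells with a Serpine2 UMI was 48.9%, 43.9%, 57.4% and 39.7% in COL1, STIFF, MATR and SOFT. The 10% of MATR cells with most Serpine2 held 51.5% of its thinned UMIs. The summed level of the 7 fibroblast markers was 14220 CPM in COL1, 13691 CPM in STIFF, 20095 CPM in MATR and 13565 CPM in SOFT, and its part in these ratios was not tested.

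Of the proteases, Plat spanned a narrower range than Serpine2 in fibroblast-like cells. It had 152 CPM in COL1, 150 CPM in STIFF, 192 CPM in MATR and 122 CPM in SOFT, which was 1.58-fold in MATR over SOFT (1.34 to 1.86). Plau had 30.9, 15.5, 26.1 and 13.5 CPM in the same order, 1.99-fold in COL1 over STIFF (1.40 to 2.83) and 1.93-fold in MATR over SOFT (1.20 to 3.16), on 29 to 80 UMIs a culture. Plaur had 43.3 CPM in COL1 against 23.4, 23.5 and 29.4 CPM in STIFF, MATR and SOFT, and was 1.85-fold in COL1 over STIFF (1.39 to 2.47) and 1.84-fold in COL1 over MATR (1.29 to 2.66). By the mean of per-cell CPM these log2 ratios were 0.38 and 0.38, against 0.67 and 0.67. A Plaur UMI was found in 33.5%, 38.7%, 25.0% and 43.2% of cells in COL1, STIFF, MATR and SOFT. After thinning the shares were 14.0%, 9.99%, 9.59% and 11.6%, with overlapping intervals. F3 had 36.3 CPM in COL1, 69.0 in STIFF, 76.4 for MATR and 71.9 for SOFT. By the margin between tags its log2 ratio was -0.15 in COL1 over MATR, against -0.90, and -0.05 in COL1 over STIFF, against -0.77. Of the 5 members, 3 differed in COL1 over MATR (background 9.06%), 0 in STIFF over SOFT (10.3%), 3 for COL1 over STIFF (12.2%) and 3 in MATR over SOFT (10.0%). Transcripts of other classes were also unequal between cultures. The 9 immune markers summed to 778 CPM in COL1, 195 CPM in STIFF, 93.6 CPM in MATR and 1429 CPM in SOFT fibroblast-like cells. In the same order the 9 HR-negative luminal markers summed to 2039, 6811, 2336 and 3949 CPM, and the 9 HR-positive luminal markers to 600, 1198, 755 and 509 CPM. Their part in the Plaur and F3 values was not tested.

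In immune-like cells Plaur was at 49.4 CPM in COL1, 69.5 CPM in STIFF, 37.4 CPM in MATR and 95.1 CPM in SOFT, over 145, 248, 154 and 258 cells. SOFT was highest and MATR lowest, and MATR over SOFT was 0.393 (0.313 to 0.489). The other ratios were 0.730 (0.636 to 0.838) in STIFF over SOFT, 0.711 (0.575 to 0.875) in COL1 over STIFF and 1.32 (1.01 to 1.74) in COL1 over MATR, none past 1.5-fold. The thinned share of cells with a Plaur UMI was 21.6%, 25.9%, 16.9% and 33.7% in COL1, STIFF, MATR and SOFT, and the 9 immune markers summed to 41131, 33323, 38257 and 46788 CPM. Plau, at 27.8, 27.2, 34.4 and 27.7 CPM, differed in none of the 4 comparisons in this class.

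F3 and Serpine2 also differed between cultures in immune-like cells, at levels well under those of their own classes. F3 had 26.1 CPM in COL1, 74.2 CPM in STIFF, 77.7 CPM in MATR and 33.4 CPM in SOFT, and Serpine2 had 33.9, 51.5, 32.1 and 13.6 CPM. In this class 1 of 4 measured members differed in COL1 over MATR (background 9.30%), 3 of 5 in STIFF over SOFT (23.2%), 3 of 5 for COL1 over STIFF (13.7%) and 3 of 4 in MATR over SOFT (14.4%). Epithelial transcripts were also unequal: the 9 HR-positive luminal markers summed to 1044 CPM in COL1, 2297 CPM in STIFF, 1133 CPM in MATR and 735 CPM in SOFT immune-like cells, and the 9 HR-negative luminal markers to 4904, 7273, 4433 and 3608 CPM. The HR-negative sums ran in the order of the Serpine2 levels. Between COL1 and MATR both sums were close, while F3 in HR-positive cells themselves was at 247 CPM in COL1 and 684 CPM in MATR. The part of these transcripts in the F3 and Serpine2 values of immune-like cells was not tested. Without the cells of highest doublet score the log2 ratio of F3 in COL1 over MATR went to -0.04 in this class, against -1.28 with them, and that of Serpine2 in COL1 over STIFF to -1.15, against -0.49. By the margin between tags that of F3 in COL1 over STIFF was -0.47, against -1.22.

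HR-negative luminal-like cells, the milk-secreting lineage's progenitors, had few molecules of most members. F3 had 86.1 CPM in COL1, 95.6 CPM in STIFF, 124 CPM in MATR and 87.1 CPM in SOFT, with MATR highest but 1.42-fold over SOFT (1.30 to 1.56). Serpine2 had 30.8, 46.7, 15.8 and 25.2 CPM, again lowest in MATR (1.94-fold in COL1 over MATR, 1.52 to 2.48; 0.629-fold in MATR over SOFT, 0.505 to 0.781; 1.85-fold in STIFF over SOFT, 1.57 to 2.19). The 10 basal markers ran in the same order in these cells, at 549 CPM in COL1, 1584 CPM in STIFF, 193 CPM in MATR and 488 CPM in SOFT, and their part in the Serpine2 values was not tested. Plat had 5.71, 9.24, 2.60 and 13.1 CPM, and was 0.198-fold in MATR over SOFT (0.120 to 0.314) on 22 and 122 UMIs. Plau had 2.42, 7.09, 1.42 and 2.37 CPM and Plaur 3.30, 7.09, 1.42 and 3.88 CPM. These are low levels, on 11 to 56 UMIs a culture. The 56 Plaur UMIs of STIFF lay in 20 of 253 cells, and the 36 of SOFT in 32 of 336. After thinning, 1.91%, 2.25%, 0.600% and 2.17% of cells kept a Plaur UMI in COL1, STIFF, MATR and SOFT. For Plau these shares were 1.49%, 2.33%, 1.05% and 1.37%. Intervals of the shares overlapped between all cultures for both genes. In COL1 over MATR 2 of 3 measured members differed (background 6.86%), and in MATR over SOFT 2 of 3 (8.95%), Plat and Serpine2 in each. In STIFF over SOFT 3 of 5 did (7.19%): Plau, Plaur and Serpine2. For COL1 over STIFF 4 of 5 did (5.59%), all lower in COL1: Plau, Plaur, Plat and Serpine2.

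Basal-like cells kept Serpine2 within a narrow band, at 122 CPM in COL1, 152 CPM in STIFF, 114 CPM in MATR and 114 CPM in SOFT. Serpine2 differed in none of the 4 comparisons there. F3 had 39.4 CPM in COL1, 64.0 in STIFF, 107 for MATR and 78.6 for SOFT, and was lower in COL1 than in MATR (0.369-fold, 0.295 to 0.460) and than in STIFF (0.616-fold, 0.488 to 0.773). Without the cells of highest doublet score the log2 ratio went to -0.29 in COL1 over STIFF, against -0.58 with them, and to -0.76 in COL1 over MATR, against -1.24. The 9 HR-positive luminal markers summed to 922 CPM in COL1, 1789 CPM in STIFF, 1258 CPM in MATR and 1980 CPM in SOFT basal-like cells. In the same order the 9 HR-negative luminal markers summed to 8900, 7720, 7740 and 5328 CPM, beside 7452, 9004, 8343 and 7098 CPM for the 10 basal markers. The part of the luminal transcripts in the F3 values was not tested. Plat had 18.0 CPM in COL1 against 9.26 CPM in STIFF and 10.9 CPM in MATR. Of 4 measured members, 2 differed in COL1 over MATR (background 6.02%), 0 in STIFF over SOFT (8.80%), 2 for COL1 over STIFF (8.47%) and 0 in MATR over SOFT (7.37%).

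**Figure D4:**
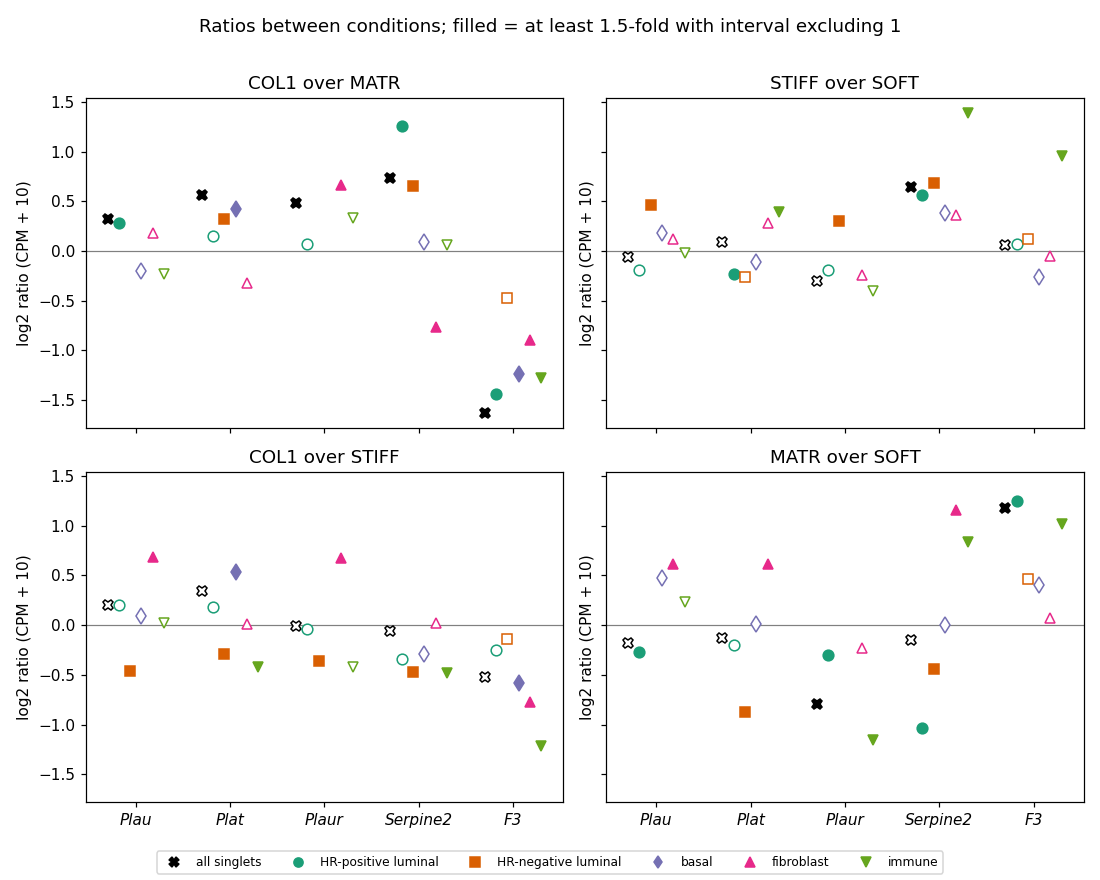
Log2 ratio of CPM + 10 between conditions (vertical axes) for each member (horizontal axes), over all tagged cells and within 5 classes. Filled symbols are at least 1.5-fold with a 95% interval excluding 1; Serpine2 in MATR over SOFT lies at -1.03 in HR-positive luminal-like and at 1.15 in fibroblast-like cells.

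Other genes of the same systems came from 3 lists. In the plasminogen list Lrp1, an endocytic receptor for serpin-protease complexes, had 87.5 CPM in COL1, 60.9 CPM in STIFF, 56.2 CPM in MATR and 61.5 CPM in SOFT over all tagged cells. It was higher in COL1 than in MATR (1.56-fold, 1.47 to 1.65), and the interval of STIFF over SOFT (0.938 to 1.05) included 1. Within fibroblast-like cells Lrp1 was at 437 CPM in COL1 against 599 CPM in MATR (0.729-fold, 0.671 to 0.792), on the other side of 1 from the value over all cells, as Plat was.

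In the tissue factor list (17 genes, 7 measured) Tfpi, the inhibitor of the tissue factor and factor VII complex, was highest in fibroblast-like cells among the 5 classes, with 93.1 and 107 CPM, against 0.474 and 0.363 CPM in the HR-positive cells where F3 was highest. The endothelial-like cluster, left out of this order, had 99.0 CPM (66.8 to 141) and 55.7 CPM (28.8 to 97.3) on 25 and 12 barcodes. Over all tagged cells Tfpi had 15.6 CPM in COL1, 7.81 CPM in STIFF, 6.75 CPM in MATR and 7.63 CPM in SOFT, and in fibroblast-like cells 121, 93.2, 127 and 115 CPM. Of the 7 measured genes, 5 were higher in COL1 than in MATR (8.83% of all genes differed) and the same 5 in COL1 than in STIFF (4.66%): F13a1, which encodes the fibrin cross-linking factor's A chain, Tfpi, Tfpi2, the thrombin receptor F2r, and Pros1, which encodes protein S. F2r was higher and F13a1 lower in STIFF over SOFT (1.53- and 0.408-fold) and in MATR over SOFT (1.62- and 0.622-fold). The list's median log2 ratio was 0.58 in COL1 over MATR, against 0.02 over all genes tested, and Tfpi and Tfpi2 within fibroblast-like cells were at 121 against 127 CPM and 216 against 191 CPM in these cultures.

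The third list held 16 other serpins and membrane serine protease genes, of which 15 were measured in COL1 over MATR. Serpinb6b, Serpina3n, Serpinf1, Serpinh1 and Serping1 were higher in COL1 (1.80- to 2.52-fold), beside 8.83% of all genes, and the list's median log2 ratio was 0.06. In COL1 over STIFF 4 of 15 differed, all higher in COL1 (4.66% of all genes), and in STIFF over SOFT 0 of 13 did (6.44%). In MATR over SOFT (6.72%) Serpinb6b (0.535-fold) and Serpini1 (0.662-fold) were lower. These values are over all tagged cells. In fibroblast-like cells 1 of 14 measured genes differed in COL1 over MATR (9.06% of all genes): Serpinb1a, not among the 5 named above. In HR-positive cells 3 of 11 were higher in that pair, Serpinb6b and Serpinh1 among them (7.48%). In immune-like cells 4 of 13 were, Serpinf1 and Serpinh1 among them (9.30%). In COL1 over STIFF 5 of 15 differed in fibroblast-like cells, all lower in COL1 (12.2%): Serpinb5, St14, Prss8, Spint1 and Spint2. The 9 HR-negative luminal markers were also lower in COL1 fibroblast-like cells, at 2039 CPM against 6811 CPM in STIFF. Their part in these 5 values was not tested.

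Likeness was measured over 20 sums, 1 for each of 5 classes in 4 conditions, as Pearson's r of log2(CPM + 10) among 4600 genes. These sums share cells, depth and pools, so the values are a description. Plau was most like Pld3 (0.969), Plekho2 (0.948) and Tnfsf12 (0.942), which like Plau were highest in immune-like cells. Plaur was most like Fxyd5 (0.965), Arpc1b (0.955) and Ch25h (0.955), all highest in immune-like cells of SOFT. The genes nearest to Plat were Sar1a (0.987), Sept11 (0.983) and Sec23a (0.982), and those nearest to Serpine2 were Sec31a (0.952), Rcn1 (0.947) and Myh10 (0.945), each highest in fibroblast-like cells. F3 was nearest to Ifi35 (0.936), Fdx1 (0.929) and Unc119b (0.929), highest in HR-positive luminal-like cells. Among the members, Plau and Plaur gave 0.900 and Plat and Serpine2 0.845, and F3 was below 0 with each of the others, from -0.105 with Serpine2 to -0.502 with Plau.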

How the data were processed

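The authors deposited UMI counts for each gene in each barcode, not normalized; per the file headers these come from Cell Ranger 5.0.0. Seurat 4.2.0 and mm10 are further named in the submitters' processing notes. The 2 entries of a pool held equal gene counts, so each pool was read once. The cell filter asked for 1000 UMIs and 500 genes or more, with mitochondrial UMIs at 15% or less. Hashtags were called with HTODemux (Seurat 5.3.0, R 4.3.3, positive quantile 0.99), and barcodes with both tags (305 and 277) or none were left out of conditions. Alternatives were a higher quantile, a relative rule (each tag over its own background, one at least 2 times the other) and a margin rule (a lead of at least 1 between centred log-ratios). Scrublet marked no cell in either pool and was no working filter; its highest scores were left out as an alternative. The singlets of the pools entered 1 clustering, not integrated (scanpy 1.11.5, 2000 variable genes, 30 components, 15 neighbours, Leiden resolution 0.5), and other barcodes were assigned to these clusters by their neighbours. Clusters with markers of 2 classes or of far lower depth than their pool stayed unnamed. Scripts ran in Python 3.11.15 (igraph 0.11.9, scikit-learn 1.9.0, pandas 2.3.3, numpy 2.4.6, matplotlib 3.10.9, scipy 1.17.1).

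UMIs were summed per condition and class and divided by the total. Levels carry exact Poisson, shares exact Clopper-Pearson and ratios exact conditional binomial 95% intervals. Genes of at least 5 CPM in 1 condition were compared, within classes of at least 50 cells in both. Thinned values are expectations over all draws of 5000 UMIs, and shallower cells were left out: from 8 to 39 HR-positive and from 4 to 5 immune-like cells a culture. Over all barcodes of the COL1 and STIFF pool, 380 of 2182 HR-negative, 129 of 1324 basal-like and 63 of 602 fibroblast-like ones were left out. In the MATR and SOFT pool these were 237 of 2282, 105 of 788 and 30 of 339. Log2 ratios used a pseudocount of 10 CPM. Members, gene lists and markers were chosen with earlier results of these data known. All 5 members are named; of the 3 lists, genes that differed and Tfpi, except for a result of the plasminogen list that is not reported here; and per member the 3 most alike genes with at least 200 UMIs and 50 CPM in 1 sum. Intervals were tested on simulated data.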

Additional observations from a re-analysis of the deposited data

Results flagged for a closer look

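Serpine2 went in opposite directions in different classes of the same cultures, and the difference between classes was not tested, with 1 culture per condition. In COL1 over MATR its log2 ratio was 1.25 in HR-positive luminal-like cells and 0.66 in HR-negative luminal-like cells, against -0.76 in fibroblast-like cells. In MATR over SOFT it was -1.03 in HR-positive and -0.45 in HR-negative luminal-like cells, against 1.15 in fibroblast-like and 0.84 in immune-like cells. Exchanging the tags of the MATR and SOFT pool turned the MATR over SOFT signs round, and also that of COL1 over MATR in fibroblast-like cells (0.39), so that the classes then no longer differed in sign there. Otherwise the sign in HR-positive and in fibroblast-like cells held under each of the 3 other hashtag rules, the stricter cell filter, the exclusion of high doublet scores, the other scaling and the mean of per-cell CPM, with ranges of 1.14 to 1.28 and -1.01 to -0.47 for COL1 over MATR, and -1.03 to -0.91 and 0.82 to 1.33 for MATR over SOFT. At a Leiden resolution of 1.0, tried after seeing the data, the fibroblast-like values were -0.73 for COL1 over MATR and 0.70 for MATR over SOFT in the cells still named fibroblast-like, and -0.63 and 0.83 in the unnamed cluster that split off.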

How the results depend on the processing

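With COL1 over MATR, the count of 5 members apart went to 1 at a 2-fold threshold, 2 with the MATR and SOFT tags exchanged, 3 with the COL1 and STIFF tags exchanged and 2 with tags ignored. With STIFF over SOFT, the count of 1 went to 2 at a higher positive quantile, 0 at 2-fold, 3 with the MATR and SOFT tags exchanged, 2 with the COL1 and STIFF tags exchanged, 2 with tags ignored and 2 by the mean of per-cell CPM. With COL1 over STIFF, the count of 0 went to 1 by the mean of per-cell CPM. No paired analysis was possible because each condition was 1 culture.

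Log2 ratios of members that differed turned round as follows. With the MATR and SOFT tags exchanged, COL1 over MATR gave -0.31 for Plaur over all cells and 0.39 for Serpine2 in fibroblast-like cells. MATR over SOFT, which this exchange inverts by construction, gave 0.80 for Plaur and -1.18 for F3 over all cells, 1.03 for Serpine2 and -1.25 for F3 in HR-positive, 0.45 for Serpine2 in HR-negative, -0.62 for Plau, -0.62 for Plat and -1.15 for Serpine2 in fibroblast-like, and 1.15 for Plaur, -0.84 for Serpine2 and -1.02 for F3 in immune-like cells. With the COL1 and STIFF tags exchanged, COL1 over STIFF likewise gave 0.48 for Serpine2 in HR-negative, 0.58 for F3 in basal-like, -0.68 for Plau, -0.67 for Plaur and 0.77 for F3 in fibroblast-like, and 0.49 for Serpine2 and 1.22 for F3 in immune-like cells, and COL1 over MATR gave -0.0044 for Plaur in fibroblast-like cells. F3 in immune-like cells in STIFF over SOFT gave -0.059 and -0.26 with the MATR and SOFT and the COL1 and STIFF tags exchanged and -0.098 with tags ignored. Apart from exchanged or ignored tags, 5 of the 36 ratios that passed the call (within classes, at 20 CPM or more) moved by over 1.5 times, all in fibroblast-like or immune-like cells: F3 in fibroblast-like cells in COL1 over MATR (-0.21 by the relative rule and -0.15 by the margin rule, against -0.90) and the 4 given beside their levels in these classes. Of the 43 ratios that did not pass it, 19 changed sign under at least 1 alternative, among them Serpine2 in fibroblast-like cells in STIFF over SOFT (-0.23 by the margin rule, against 0.37). Trimmed mean scaling gave a log2 scaling shift of over 0.1 in size in HR-positive cells in COL1 over MATR (0.12). It did so in immune-like cells in STIFF over SOFT (0.23), MATR over SOFT (0.14) and COL1 over STIFF (-0.12). Log2 ratios move against the sign of the shift: F3 in HR-positive cells in COL1 over MATR went from -1.43 to -1.55. The cause of the other changes was not tested.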
